A study of Mus musculus with 4 samples.

Results

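The antiviral interferon-stimulated effector genes are 36 genes that make or control the proteins with which a cell recognises and restrains a virus. Their names were fixed by function (nucleic acid sensors, oligoadenylate synthetases, IFIT and MX proteins, ubiquitin-like modifiers and related effectors), without interferon receptors, STATs, immunity-related GTPases or antigen presentation genes, and were chosen with earlier results of these data known. All 36 were found among the 24312 genes of the deposited table. Interferons bind surface receptors and activate transcription factors, STAT2 and IRF9 among them, that bind the interferon-stimulated response element (ISRE) in the promoters of such genes. Many of the members are also transcribed at a low level without any infection, through small amounts of interferon and through IRF1 and IRF9 already present in the cell. In CD8 T cells, type I interferon is also one of the signals that shape clonal expansion and memory after infection.

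The tested cells were P14 CD8 T cells carrying MIG-BATF, and the cells they were set against carried MIG alone. P14 cells are mouse T cells with a transgenic receptor for the gp33 peptide of lymphocytic choriomeningitis virus, here on a C57BL/6 background. MIG is a retroviral vector that expresses GFP, and BATF is an AP-1 family transcription factor that pairs with JUN proteins and IRF4. Both groups received 100 ng/ml gp33 for 1 day, spin transduction, 1 further day of activation, 2 days in 10 ng/ml IL-2, a sort for CD8 and GFP, and 2 days in 1 ng/ml IL-2, so that the MIG cells too carry a retrovirus. The labels name no added interferon. The added BATF was made from the vector. Counts per gene do not separate its RNA from that of the cell's own Batf gene. The labels do not say whether the libraries came from separate mice, so the p-values below rest on a spread that may be technical.

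Poly(A) RNA was sequenced in 2 libraries per group. The libraries held 19004726 and 21835962 fragments in BATF, against 24795707 and 20354627 fragments in MIG. Batf itself stood at 1342 and 934 CPM in BATF, against 36.1 and 26.5 CPM in MIG (log2 fold change 5.18 ± 0.24 SE, edgeR adjusted p = 0.00188), where CPM is the fragment count scaled to library size by the TMM method. T cell genes were abundant in every library, with a summed level over 10 genes of 4517 to 4657 CPM in BATF and 5246 to 5414 CPM in MIG. By edgeR 0 of the 10 passed the adjusted threshold, 4 had an unadjusted p under 0.05, and 9 had a negative log2 fold change (median −0.16). Cd8a stood at 423 and 599 CPM in BATF, against 659 and 749.7 CPM in MIG. Of the markers of other cells, 7 of 10 myeloid genes stayed under 1 CPM in every library, and the list's summed level, mostly Itgax, was 38.5 to 46.5 CPM in BATF and 28.8 to 29.8 CPM in MIG. The same held for 4 of 5 B cell genes (sum, nearly all Cd79b, 11.9 to 13.1 CPM in BATF and 14.4 to 18.02 CPM in MIG), 4 of 4 NK and gamma-delta T cell genes (sum 0.827 to 1.21 CPM in BATF and 0.899 to 0.922 CPM in MIG), 7 of 8 erythroid and stromal genes (sum, nearly all Pecam1, 55.5 to 62.1 CPM in BATF and 62.0 to 89.3 CPM in MIG) and 1 of 4 CD4 and regulatory T cell genes (sum, mostly Zbtb7b, 37.4 to 47.7 CPM in BATF and 20.9 to 27.0 CPM in MIG). Siglech, a defining marker of interferon-producing plasmacytoid dendritic cells, was under 1 CPM throughout, at 0.475 and 0.276 in BATF, against 0.286 and 0.388 in MIG. Of the 6 genes of that list, 3 were under 1 CPM in every library. Tcf4 of the list stood at 6.80 and 6.11 CPM in BATF, against 5.56 and 5.24 CPM in MIG. Ccr9 stood at 1.42 and 0.781 CPM in BATF, against 1.88 and 2.18 CPM in MIG. The list's sum was 58.5 to 69.0 CPM in BATF and 76.1 to 89.2 CPM in MIG, of which the member Bst2 made up most. The planned markers Ighm, Emr1, Ly6g and Tcrg-C1 were not found under these names in the deposited data and are not counted above. The part of the marker genes in the results below was not tested. In such bulk samples fewer cells of a type and less RNA per cell cannot be told apart.

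Nearly all antiviral genes had less RNA in the BATF libraries than in the MIG libraries, by a small amount per gene, and 1 of them passed the test. Of the 34 members that could be tested, 33 had a log2 fold change below 0. Their median was −0.43, which is 0.743 times the MIG level, while over all 13008 genes tested the median was −0.00558 and 51.5% were negative. Only Ifi27l2a passed the threshold when p-values were adjusted over all genes, so 1 of 34 members fell, where 0.208% of all genes did, and 0 rose, where 0.884% did. At an unadjusted p under 0.05, 19 of the 34 were lower, against 4.09% of all genes, and 0 were higher, against 6.69%. DESeq2 called 6 members lower, against 0.761% of all genes, and 0 higher, against 2.04% of all genes. In 26 members both BATF libraries lay below both MIG libraries, against 19.4% of all genes, and in 0 members both lay above, against 19.2%. Calls come from the quasi-likelihood test of edgeR at an adjusted p (Benjamini-Hochberg) under 0.05, and the SE below is that of the log2 fold change of BATF over MIG. The test needed about 10 fragments in at least 2 libraries. Mx2 and Ifi44 did not reach this, and Oasl2 reached it through its MIG libraries alone, so its lower BATF value was partly fixed by the filter. Among the 29 members with a mean of at least 1 CPM, which were above the filter's cutoff in every library, all 29 were negative, from −1.18 to −0.02. Of the 11193 genes at that level, 52.9% were negative.

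**Figure D1:**
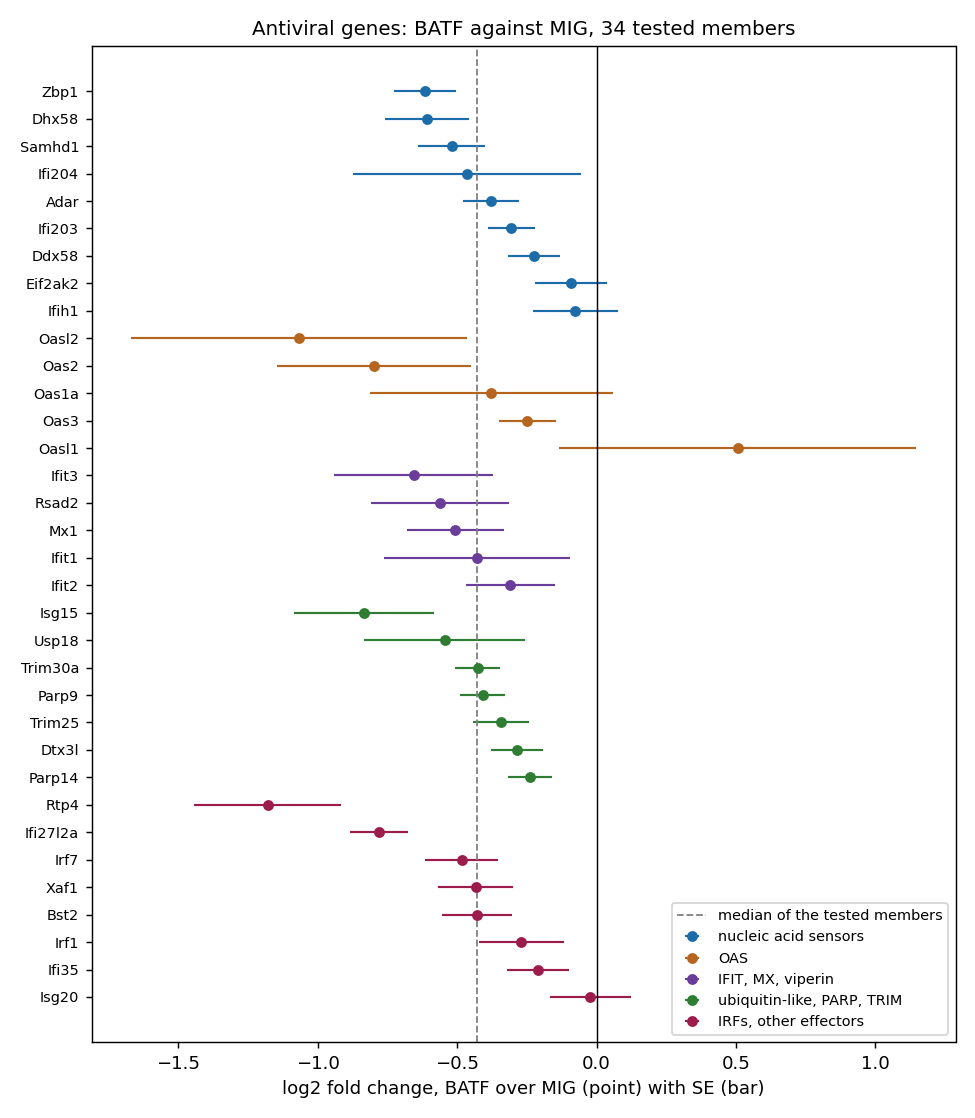
Log2 fold change of BATF over MIG for the 34 tested members, grouped by role, with points for the edgeR estimate and bars for its SE (2 libraries per group). Points crowd around the dashed median of −0.43; Oasl1 is the 1 point right of 0, and Rtp4 and Oasl2 lie furthest left.

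The members differed widely in level, compared here per transcript length as FPKM (the authors' fragment counts scaled for transcript length and depth). Ifi27l2a was the most abundant, at 169 ± 12.4 FPKM in BATF and 292 ± 29.2 FPKM in MIG (SD, n = 2 per group). Samhd1 followed at 146 ± 13.6 FPKM in BATF and 210.1 ± 33.6 FPKM in MIG, and Bst2 at 96.5 ± 9.69 FPKM in BATF and 131 ± 19.8 FPKM in MIG. Next came Irf1, with 62.4 ± 6.99 FPKM in BATF and 75.7 ± 17.3 FPKM in MIG, which overlap within their spread. Isg15, whose transcript is abundant in infected cells, lay in the middle of the order, at 5.15 ± 1.40 FPKM in BATF and 9.27 ± 0.881 FPKM in MIG. At the other end, Mx2 and Ifi44 were each under 0.3 FPKM in both groups' means. Summed over the 36 members, FPKM came to 862 and 811 in BATF, against 1251 and 1089 in MIG. In fragments the members took 0.206% and 0.190% of the BATF libraries, against 0.269% and 0.251% of the MIG libraries, and Samhd1 alone supplied between 27.1% and 32.1% of them.

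What many members share in sequence is the ISRE. RefSeq promoter windows (GRCm38.p6, 250 bases before to 50 after a gene's start) were matched by symbol for 25 of the 36 members. Ifi27l2a, Rtp4, Zbp1, Parp9, Parp14, Dhx58, Mx1, Mx2, Oas2, Usp18 and Ifi204 were not matched. An ISRE core, TTTCNNTTTC on either strand, stood in a window of 12 of the 25 (48.0%), where 3.99% of all 27025 genes of the table held one. The interferon gamma-activated sequence (GAS), TTCNNNGAA, stood in 9 of 25 against 9.55% of all genes, and the AP-1 motif TGANTCA, the kind of element that BATF and JUN pairs bind, in 7 of 25 against 8.97%. A match is a description of these letters and not a bound site. The windows of 5 members follow, each the 160 bases before the gene's start. Trim30a is shown because, of the 4 members with the smallest unadjusted p, it was the 1 with a window, and the others were chosen after their matches were seen, as clear examples of ISRE copies alone (Isg15, Ifit1) and together with AP-1 letters (Ifit3, Oas3). Capitals mark matches to the 3 motifs, read 5′ to 3′ in the direction of the gene.
Trim30a (chr7:104465194-104465353, minus strand): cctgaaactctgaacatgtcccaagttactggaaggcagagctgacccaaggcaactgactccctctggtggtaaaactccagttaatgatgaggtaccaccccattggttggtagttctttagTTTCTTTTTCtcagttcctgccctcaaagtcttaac
Isg15 (chr4:156200819-156200978, minus strand): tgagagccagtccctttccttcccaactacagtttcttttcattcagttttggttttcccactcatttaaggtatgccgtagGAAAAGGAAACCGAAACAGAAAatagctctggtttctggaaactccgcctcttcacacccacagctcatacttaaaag
Ifit1 (chr19:34640729-34640888, plus strand): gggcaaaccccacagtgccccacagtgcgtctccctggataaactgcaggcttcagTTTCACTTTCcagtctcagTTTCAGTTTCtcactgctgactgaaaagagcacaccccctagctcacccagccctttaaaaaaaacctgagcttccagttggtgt
Ifit3 (chr19:34583369-34583528, plus strand): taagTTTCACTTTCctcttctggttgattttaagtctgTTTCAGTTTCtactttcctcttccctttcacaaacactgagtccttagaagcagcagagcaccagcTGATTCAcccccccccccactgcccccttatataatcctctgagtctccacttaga
Oas3 (chr5:120777660-120777819, minus strand): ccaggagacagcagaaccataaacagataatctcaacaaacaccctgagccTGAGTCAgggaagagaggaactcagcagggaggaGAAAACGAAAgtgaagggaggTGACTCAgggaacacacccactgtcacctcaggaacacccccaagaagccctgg
The 3 ISRE matches of Isg15 overlap and start 78, 72 and 66 bases before the gene. Ifit1 and Ifit3 each hold 2 ISRE copies with the same letters, TTTCACTTTC and TTTCAGTTTC. In Oas3 the ISRE lies between 2 AP-1 matches, 109 and 54 bases before the start. Members with an ISRE match were found both among those well below the MIG level (Isg15, log2 fold change −0.84) and among those near it (Ifih1, −0.08, and Eif2ak2, −0.09).

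The nucleic acid sensors among the members were grouped with Adar and Samhd1, which act on RNA or nucleotides. They were lower in BATF without passing the test singly: all 9 log2 fold changes were negative (median −0.38). In 7 of the 9 both BATF libraries lay below both MIG libraries, against 19.4% of all genes. Sensors outside the members were not all lower: the log2 fold change was 0.46 ± 0.22 SE for Aim2 and 0.05 ± 0.17 SE for Mb21d1, against −1.55 for Tlr7. The 3 RIG-I-like receptors differed among themselves. Ddx58, which encodes RIG-I, the sensor of short RNA with a 5′ triphosphate, stood at 93.0 and 94.3 CPM in BATF, against 102 and 116 CPM in MIG (−0.22 ± 0.09 SE, −0.14 without MIG replicate 2). Both BATF libraries were below both MIG libraries, by a narrow gap. Ifih1, which encodes MDA5, the sensor of long double-stranded RNA, stood at 8.96 and 9.37 CPM in BATF, against 9.11 and 10.2 CPM in MIG, and its groups overlapped. Dhx58, which encodes LGP2, a relative without signalling domains that tunes the other 2, stood at 12.1 and 14.1 CPM in BATF, against 21.5 and 18.4 CPM in MIG (−0.61 ± 0.15 SE, edgeR adjusted p = 0.162). Relative to its level, its gap was the widest of the 3 receptors.

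Zbp1 detects nucleic acid in the Z form and can start RIPK3-dependent cell death. It stood at 35.3 and 33.8 CPM in BATF, against 57.0 and 48.9 CPM in MIG, with a log2 fold change of −0.62 ± 0.11 SE, and missed the threshold (edgeR adjusted p = 0.0687). The 2 BATF libraries were close together and well apart from MIG. Samhd1, a phosphohydrolase that depletes the nucleotides a retrovirus needs for reverse transcription, was the most abundant of the sensor group at 599 and 516 CPM in BATF, against 876 and 723 CPM in MIG (−0.52 ± 0.12 SE, edgeR adjusted p = 0.137). Adar, which edits double-stranded RNA of the cell so that MDA5 ignores it, stood at 124 and 123 CPM in BATF, against 174 and 147 CPM in MIG (−0.38 ± 0.10 SE, −0.25 without MIG replicate 1). In both genes the groups were apart, and in both the MIG libraries differed from each other more than the BATF libraries did from each other in the scaled values. Eif2ak2, which encodes PKR, the kinase that halts translation on contact with double-stranded RNA, stood at 39.4 and 43.8 CPM in BATF, against 39.8 and 49.0 CPM in MIG, and its groups overlapped. Ifi203, a DNA-binding PYHIN protein of mouse, stood at 105 and 96.0 CPM in BATF, against 124 and 125 CPM in MIG (−0.31 ± 0.08 SE). Its relative Ifi204 was near the limit of counting, with 9 and 14 fragments in BATF, against 18 and 17 in MIG.

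Oligoadenylate synthetases make the 2′-5′ linked adenylates that switch on RNase L, which then degrades viral and cellular RNA. Among the 5 members of this group Oas3 carried almost all of the RNA, at 28.1 ± 2.75 FPKM in BATF and 33.5 ± 2.63 FPKM in MIG. The means of the other 4 members lay under 0.5 FPKM. Outside the members, Oas1c stood at 4.32 ± 0.42 FPKM in BATF and 4.31 ± 0.92 FPKM in MIG (log2 fold change 0.01 ± 0.19 SE). Oas1b stood at 2.30 ± 0.11 FPKM in BATF and 2.04 ± 0.62 FPKM in MIG (0.18 ± 0.26 SE). Oas3 stood at 139.7 and 119.7 CPM in BATF, against 159.6 and 148 CPM in MIG (edgeR adjusted p = 0.441, log2 fold change −0.25 ± 0.10 SE, −0.14 without BATF replicate 2). The groups were apart, by less than the distance between the 2 BATF libraries. Oas2 had 13 and 15 fragments in BATF, against 28 and 26 in MIG, and its values did not overlap either. Oas1a had 14 and 12 fragments in BATF, against 25 and 13 in MIG, and Oasl2, a mouse synthetase with ubiquitin-like domains, 8 and 3 fragments in BATF, against 14 and 12 in MIG. Oasl1, a relative known in mouse to hold back translation of Irf7, had 12 and 17 fragments in BATF, against 5 and 17 in MIG. It was the 1 tested member with a positive log2 fold change (0.51 ± 0.64 SE, between −0.21 and 1.76 with 1 library left out), its groups overlapped, and the log2 fold change was −0.21 without MIG replicate 1. For these 4 genes a difference of the size of the set's median was not detectable at this depth.

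The IFIT, MX and viperin genes, strongly induced by interferon in most cells, were low here apart from Ifit2, and all 5 that could be tested had negative log2 fold changes with a median of −0.51. Ifit2, which binds RNA and curbs virus spread in mouse tissue, stood at 34.5 and 26.7 CPM in BATF, against 41.3 and 34.5 CPM in MIG (−0.31 ± 0.16 SE, between −0.50 and −0.13 with 1 library left out). Its first BATF library was level with the second MIG library, so the groups overlapped slightly. Ifit1, which binds viral RNA with an incomplete cap, stood at 1.85 and 3.31 CPM in BATF, against 2.98 and 4.03 CPM in MIG, and its groups overlapped. Ifit3, which stabilises IFIT1 in human cells, stood at 1.37 and 1.29 CPM in BATF, against 1.92 and 2.28 CPM in MIG (−0.66 ± 0.28 SE). Its 2 BATF libraries were below both MIG libraries. Mx1 encodes a dynamin-like GTPase that blocks influenza virus and is defective in C57BL/6 mice. Its RNA stood at 5.75 and 5.38 CPM in BATF, against 8.46 and 7.33 CPM in MIG (−0.51 ± 0.17 SE, edgeR adjusted p = 0.320), apart between the groups. Mx2, its paralog, had 9 and 10 fragments in BATF, against 3 and 4 in MIG, more in both BATF libraries, and was too low for the main test. With no filter on low counts, 1 of 36 members had an unadjusted edgeR p under 0.05 on the higher side. That member was Mx2 or Ifi44, whose single values in that fit were not kept. Rsad2, which encodes viperin, the enzyme that makes a chain-terminating nucleotide, stood at 1.90 and 1.93 CPM in BATF, against 2.98 and 2.67 CPM in MIG (−0.56 ± 0.25 SE). Here too the BATF libraries were the lower ones.

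The ubiquitin-like modifier, its controls and the linked PARP and TRIM genes were lower throughout, with none called by edgeR: in all 7 both BATF libraries lay below both MIG libraries, against 19.4% of all genes, and the median log2 fold change was −0.41. Isg15, the ubiquitin-like protein that is attached to viral and host proteins, stood at 2.37 and 3.45 CPM in BATF, against 4.78 and 5.68 CPM in MIG (−0.84 ± 0.25 SE, edgeR adjusted p = 0.242). Usp18, the protease that removes ISG15 and also blocks the type I interferon receptor, stood at 1.95 and 1.61 CPM in BATF, against 2.98 and 2.18 CPM in MIG (−0.55 ± 0.29 SE, −0.29 without MIG replicate 1). Both genes were low, and the gap between the groups was wide for Isg15 and narrow for Usp18. Trim25, a ubiquitin ligase that acts on RIG-I, stood at 96.1 and 84.6 CPM in BATF, against 121 and 108 CPM in MIG (−0.34 ± 0.10 SE). Trim30a, a mouse TRIM protein that restrains NF-kappaB signalling, stood at 68.5 and 65.4 CPM in BATF, against 89.4 and 90.6 CPM in MIG (−0.43 ± 0.08 SE, edgeR adjusted p = 0.0809). The replicates of Trim30a agreed to within a few CPM in each group, and the gap between groups was several times wider.

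Dtx3l, Parp9 and Parp14 are neighbours in the RefSeq annotation, and DTX3L and PARP9 form 1 complex, a ubiquitin ligase with an ADP-ribosyltransferase partner. Parp9 stood at 81.1 and 86.1 CPM in BATF, against 110.3 and 112 CPM in MIG (−0.41 ± 0.08 SE, edgeR adjusted p = 0.0881), and Dtx3l at 144 and 125 CPM in BATF, against 161 and 166 CPM in MIG (−0.29 ± 0.09 SE, −0.19 without BATF replicate 2). Parp14, a mono-ADP-ribosyltransferase, stood at 125 and 130.4 CPM in BATF, against 152 and 149 CPM in MIG (−0.24 ± 0.08 SE). All 3 were lower in both BATF libraries. The gene bodies of Dtx3l and Parp9 overlap in that annotation. Strand was not given in the sources used here, so reads in the shared stretch cannot be told apart. Adar, Eif2ak2 and Ifit1 also overlap other genes there.

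**Figure D2:**
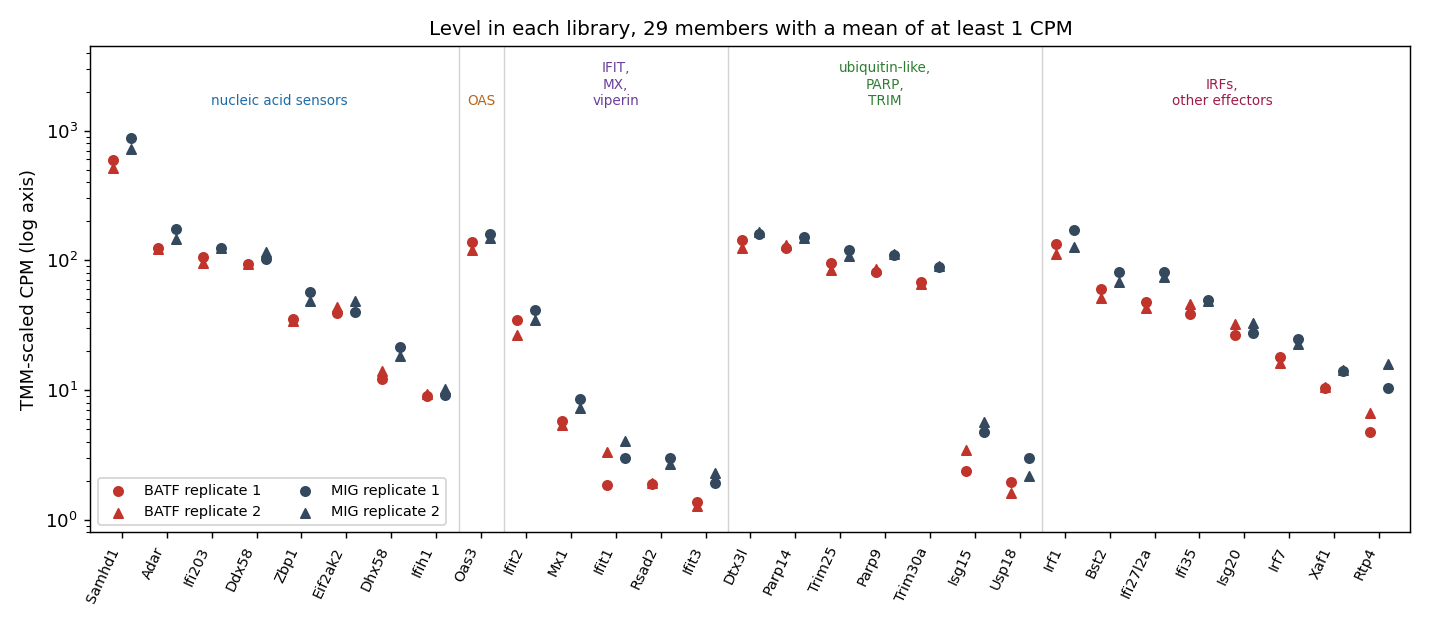
TMM-scaled CPM on a log axis for the 29 members with a mean of at least 1 CPM, by role and descending level, with BATF libraries (red) left of MIG libraries (dark). BATF points sit lower in most columns, and overlap the MIG points in Ifih1, Eif2ak2, Ifit1, Ifit2, Irf1 and Isg20.

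Among the transcription factors and other effectors stood the 1 member that fell. Ifi27l2a, a small hydrophobic mouse protein of the IFI27 family that many interferon-exposed cells express, fell to 48.1 and 42.6 CPM in BATF, against 81.8 and 73.8 CPM in MIG. Its log2 fold change was −0.78 ± 0.10 SE (edgeR adjusted p = 0.0263), and without BATF replicate 2 the call was lost at −0.70 (edgeR adjusted p = 0.0504). The adjusted p ranged from 4.45e-06 (DESeq2) to 0.0623 (limma on log2(FPKM + 1)) over the 12 alternatives without a block. Its gene body overlaps that of its relative Ifi27 in the RefSeq annotation. Ifi27 stood at 61.4 and 69.8 CPM in BATF, against 79.5 and 75.5 CPM in MIG (−0.24 ± 0.10 SE), the same side with a smaller gap. Rtp4 had the largest difference of the tested members, at 4.75 and 6.71 CPM in BATF, against 10.3 and 15.8 CPM in MIG (−1.18 ± 0.26 SE). It missed the threshold (edgeR adjusted p = 0.123), and the libraries of each group also lay far apart. Rtp4 overlaps Masp1 in the same annotation.

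Irf7, the factor that amplifies type I interferon production, stood at 17.9 and 16.1 CPM in BATF, against 24.9 and 22.7 CPM in MIG (−0.48 ± 0.13 SE). Irf1, a factor that keeps many of these genes transcribed at rest, stood at 134 and 113 CPM in BATF, against 170.0 and 127 CPM in MIG (−0.27 ± 0.15 SE, between −0.47 and −0.04 with 1 library left out). The groups of Irf7 were apart, and those of Irf1 overlapped, its second MIG library lying between the 2 BATF libraries. Bst2, which encodes tetherin, the protein that holds budding virus at the cell surface, stood at 60.0 and 51.2 CPM in BATF, against 81.4 and 68.1 CPM in MIG (−0.43 ± 0.12 SE). Xaf1, an antagonist of the caspase inhibitor XIAP, stood at 10.3 and 10.5 CPM in BATF, against 13.9 and 14.2 CPM in MIG (−0.43 ± 0.13 SE), with replicates nearly equal in each group. Ifi35, a partner of NMI, stood at 38.9 and 46.1 CPM in BATF, against 49.6 and 48.7 CPM in MIG (−0.21 ± 0.11 SE, −0.09 without BATF replicate 1 and −0.34 without BATF replicate 2). Isg20, an exonuclease for single-stranded RNA, was the member with the least difference, at 26.7 and 32.4 CPM in BATF, against 27.4 and 32.7 CPM in MIG (−0.02 ± 0.15 SE, between −0.17 and 0.11 with 1 library left out), and its groups overlapped. Ifi44 had 9 and 6 fragments in BATF, against 8 and 6 in MIG, and was too low for the main test.

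**Figure D3:**
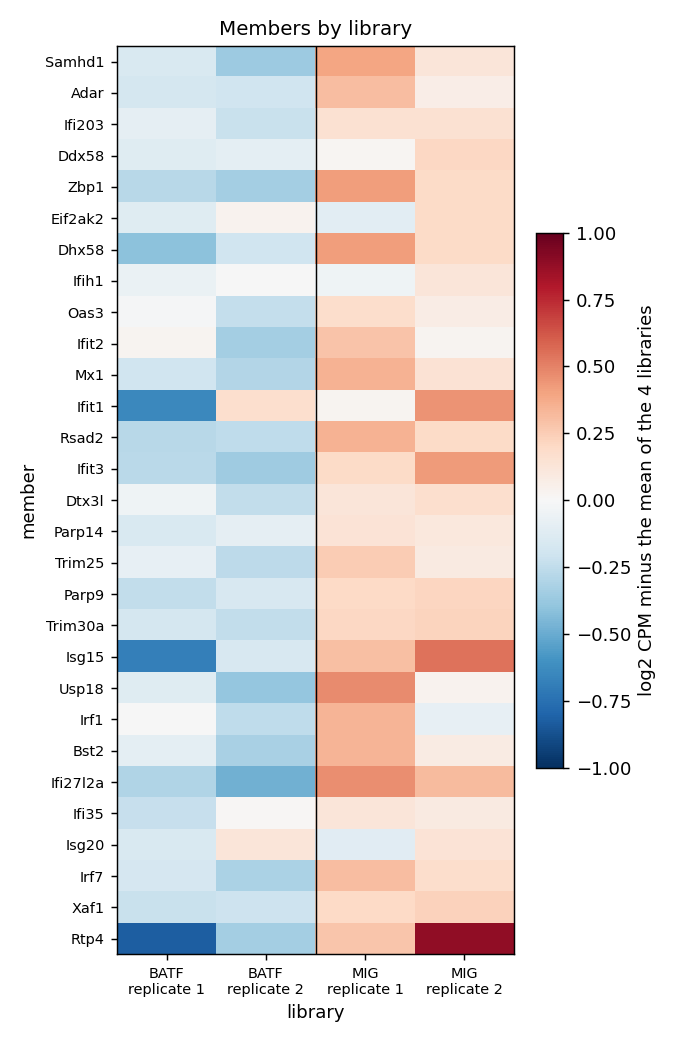
Log2 CPM (prior count 2) of each of the 29 members minus its mean over the 4 libraries, with BATF libraries left of the black line and MIG libraries right of it. BATF columns are mostly blue (below the mean) and MIG columns mostly red; Rtp4, Isg15 and Ifit1 show the deepest blue in BATF replicate 1.

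The shift was seen in each library. The members' median log2 deviation from each gene's mean over the 4 libraries was −0.16 and −0.25 in BATF, against 0.26 and 0.18 in MIG, where the median over all genes was within 0.01 of 0 in each library. The highest of the 4 values of a member was in MIG replicate 1 for 17 members and in MIG replicate 2 for 17, and the lowest was in a BATF library for 33 of 34. Such counts were not made over all genes, so no share stands beside them. The deviations come from the same 4 libraries as the fold changes, so they are no separate support. By role, the OAS median was 0.0358 in BATF replicate 1 and −0.33 in BATF replicate 2. The medians of the other role groups were below 0 in both BATF libraries. Not all members shared 1 order. Samhd1, Zbp1, Dhx58, Bst2 and Irf1 were highest in MIG replicate 1, while Isg15, Ifit1, Ifit3 and Rtp4 were highest in MIG replicate 2. Replicates differed beyond counting noise in these genes too, with a mean chi-square per member of 10.7 between the BATF libraries and 17.4 between the MIG libraries, against 9.49 and 17.7 per gene over all genes.

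Members with fewer fragments had wider errors. The 21 members of at least 10 CPM had a median log2 fold change of −0.34, SE between 0.08 and 0.16, and 16 with an unadjusted p under 0.05 on the lower side, where 4.73% of all genes at that level had one. The 8 members between 1 and 10 CPM had a median of −0.55 with SE between 0.15 and 0.33, and 3 of them passed that level, Mx1, Isg15 and Rtp4, against 4.02% of all genes. The 5 tested members under 1 CPM had SE of up to 0.64, and 0 of them passed it, against 1.27% of all genes at that level. Isg20, Ifih1 and Eif2ak2, the 3 members closest to no difference, had more than 100 fragments in every library.

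**Figure D4:**
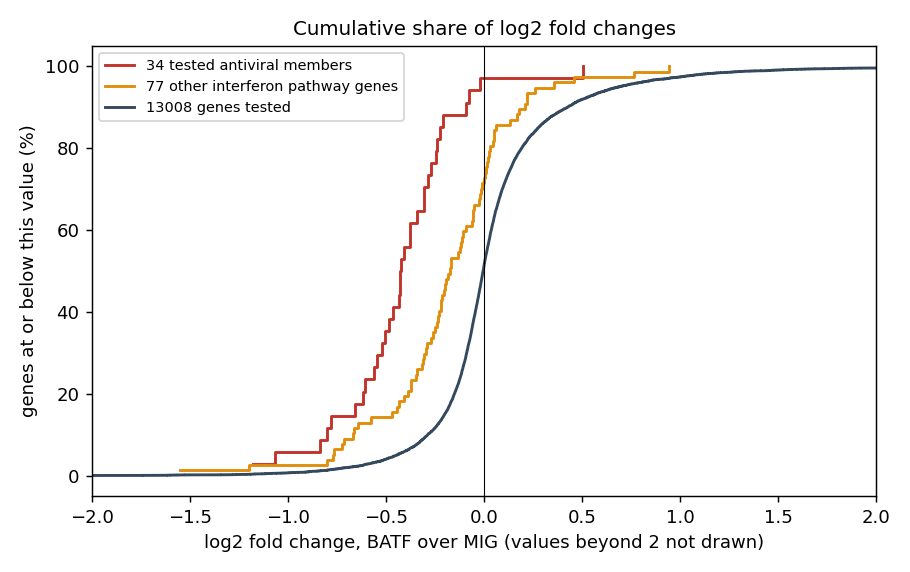
Cumulative share of genes (%) at or below each log2 fold change of BATF over MIG, for the 34 tested members (red), 77 other interferon pathway genes (orange) and all 13008 genes tested (dark). The members' curve lies left of the others, with medians of −0.43 for members, −0.17 for other pathway genes and −0.00558 for all genes.

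Most of the other genes of the pathway also lay on the lower side, though the signs were mixed. Of 77 that could be tested, 55 were negative (median −0.17), against 51.5% of all genes. By edgeR 0 passed the adjusted threshold in either direction. In 36 of the 77 both BATF libraries lay below both MIG libraries, against 19.4% of all genes, and in 9 both lay above, against 19.2%. An unadjusted p under 0.05 was found for 25 on the lower side, against 4.09% of all genes, and for 3 on the higher side, against 6.69%. DESeq2 called 7 lower and 1 higher, against 0.761% and 2.04% of all genes. Of the factors that bind the ISRE, Irf9 stood at 52.1 and 47.9 CPM in BATF, against 71.8 and 63.3 CPM in MIG (−0.44 ± 0.10 SE, edgeR adjusted p = 0.145), and Stat2 at 35.2 and 36.1 in BATF, against 47.7 and 35.2 in MIG, where the groups overlapped. Among receptor chains, Ifnar1 of the type I receptor stood at 138 and 138 CPM in BATF, against 197 and 178 CPM in MIG, and Ifngr2 of the interferon gamma receptor at 8.86 and 10.5 in BATF, against 17.4 and 27.2 in MIG (−1.20 ± 0.23 SE). Irf5, a factor of Toll-like receptor signalling, lay on the other side, at 11.8 and 9.70 CPM in BATF, against 6.33 and 4.76 CPM in MIG (0.95 ± 0.20 SE, edgeR adjusted p = 0.111). Of the brakes, Socs3 had a log2 fold change of −0.66 and Irf2bp2 of 0.21, and of the sensing genes Tlr7 had −1.55, at under 1 CPM, and Ikbke −0.30. Among further interferon-stimulated genes outside the member list, Sp110, a nuclear body protein, stood at 117 and 113 CPM in BATF, against 162 and 158 CPM in MIG (edgeR adjusted p = 0.0518), and Trim12a, a TRIM protein of mouse, at 20.7 and 22.9 in BATF, against 33.6 and 31.6 in MIG. Interferons themselves were nearly without fragments. The 11 interferon genes checked other than Ifng had 17 and 16 fragments in all in BATF, against 10 and 23 in MIG, and Ifng stood at 1.85 and 1.61 CPM in BATF, against 3.27 and 2.43 CPM in MIG (−0.73 ± 0.28 SE).

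**Figure D5:**
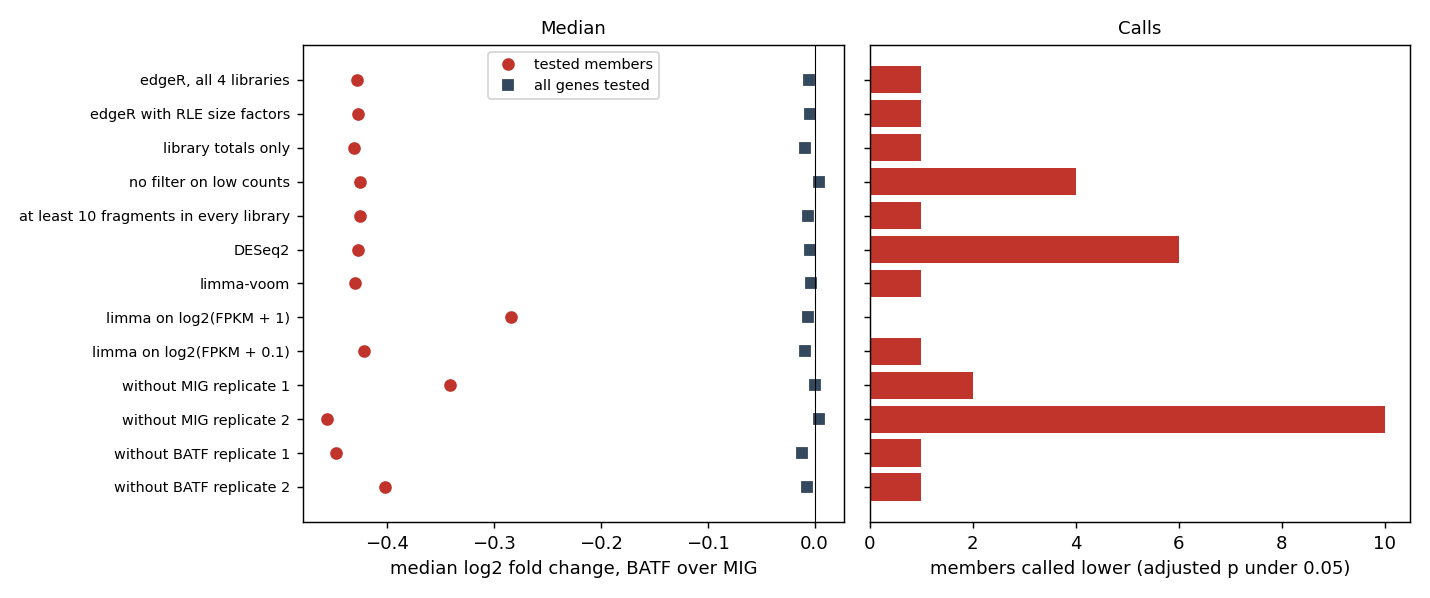
Left, the median log2 fold change of the tested members (red) and of all genes tested (dark) in each fit without a replicate block; right, the number of members called lower at an adjusted p under 0.05 in that fit. The medians of the members stay between −0.46 and −0.28, while the calls run from 0 to 10.

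The members' median was negative in every fit tried, but the number of called members varied. With edgeR, leaving out MIG replicate 2 gave 10 called members (Adar, Bst2, Dhx58, Ifi27l2a, Irf1, Parp9, Samhd1, Trim25, Trim30a and Zbp1), where 1.95% of all genes were called lower in that fit. Without MIG replicate 1 it called 2, Ifi27l2a and Rtp4, against 0.393% of all genes. Without BATF replicate 1 it called Ifi27l2a alone, against 0.487% of all genes, and without BATF replicate 2 it called Rtp4 alone, against 0.404%. The 6 members that DESeq2 called were Ifi27l2a, Parp9, Rtp4, Samhd1, Trim30a and Zbp1. The median of the members was −0.46 to −0.34 over the 4 fits with 1 library left out. Several members have near copies, among them Ifit1 and Ifit3, Oas1a, Oasl1 and Oasl2, Ifi203 and Ifi204, Trim30a and Ifi27l2a, and no source used here says how reads were shared between copies, so their single values are uncertain to that extent.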

How the data were processed

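Poly(A) RNA of 2 BATF and 2 MIG libraries was analysed. The submitters' processing notes name TopHat2 2.1.1, Cufflinks 2.2.2, Cuffdiff and mm9. Annotation and strand were not given in any source used. The data were deposited as 1 table that holds estimated counts (fragments per gene and library), a scaled fragment signal and FPKM, per the file headers. 97.6% of the deposited estimated counts were whole, and all were rounded. The signal served only to check the authors' factors, 0.889 to 1.11. The table numbers replicates from 0, which were read as 1 and 2 of the titles, as names only.

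Genes were filtered with filterByExpr (minimum count 10), scaled by TMM and tested with edgeR 4.0.16 (quasi-likelihood, R 4.3.3), BATF against MIG, adjusting over 13008 genes (Benjamini-Hochberg, threshold 0.05; biological coefficient of variation 11.3%). The procedure was checked on simulated counts. DESeq2 1.42.0 and limma 3.58.1 were alternatives, beside other scalings and filters, a replicate block and fits without 1 library. For 2 libraries in each group, the smallest two-sided permutation p is 0.333, so no such test was run. No test over the list was made. The members and lists were chosen with earlier results of these data known. All 36 members are named; those with a mean of at least 1 CPM are given by library, the others by fragments; pathway genes are named if called, for the 2 smallest unadjusted p per list, and for Stat2, Irf9 and the ligands whatever their values (1 gene that the rule names is not reported here); Ifi27, Cd8a and Siglech were added after values were seen. Aim2, Mb21d1, Oas1b, Oas1c, Tcf4, Ccr9, Ifitm1 and Ifitm2 were likewise added after values were seen. RefSeq (GRCm38.p6) gave promoter windows and which genes overlap or neighbour each other.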

Additional observations from a re-analysis of the deposited data

How the results depend on the processing

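The 13 alternatives gave 439 values for single members, of which 392 kept direction and side of the threshold, 39 newly passed it, 2 no longer passed it (both Ifi27l2a) and 6 turned sign. Turned signs were Oas1a (−0.67 to 0.0265 over fits with 1 library left out), Oasl1 (−0.21 to 1.76), Ifih1 (−0.16 to 0.00247), Eif2ak2 (−0.23 to 0.0597) and Isg20 (−0.17 to 0.11). These values leave out Mx2 and Ifi44, which the main fit did not test. Without MIG replicate 2, 36 members were tested and 30 of them were negative, against 49.5% of all genes. With 1 library left out, edgeR called 192 to 320 genes higher and 55 to 269 lower, 1 to 10 members lower and 0 higher, and 0 to 1 other pathway genes higher and 2 to 16 lower; these fits let the lone library borrow the spread of the other group. With edgeR on all 4 libraries these counts were 115, 27, 1, 0, 0 and 0. With no filter on low counts they were 266, 83, 4 members lower (Ifi27l2a, Rtp4, Samhd1 and Zbp1), 0 higher, and 1 and 5 pathway genes higher and lower. DESeq2 gave 265, 99, 6, 0, 1 and 7 in that order. At an unadjusted edgeR p under 0.05 with no filter, 20 of 36 members were lower and 1, Mx2 or Ifi44, was higher. The share of all genes at that level was not counted for that fit. Limma on log2(FPKM + 1) called 40 genes higher, 4 lower and 0 members, with a member median of −0.28, where the pseudocount shrinks low genes, and on log2(FPKM + 0.1) it called 71 and 10 genes. Library totals alone called 1 pathway gene lower. With the replicate number as a block, which leaves 1 residual degree of freedom, edgeR called 916 genes higher and 588 lower (4.52% lower), 21 members lower, and 4 and 27 pathway genes higher and lower. Same-numbered libraries deviated together only weakly (correlation across genes 0.18), no label says that a number marks a shared mouse or day, and 2 pairs do not settle it, so the numbers were not taken as pairs. The member median was −0.455 to −0.341 with 1 library left out. The cause of these differences was not tested. Depth limits Oas1a, Oas2, Oasl1, Oasl2, Mx2, Ifi204 and Ifi44, all under 1 CPM on average.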

Other observations

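A few interferon-linked genes outside the member list lay on the higher side in BATF, against the direction of the set, and these were picked with their values in view. Tdrd7, a tudor protein that limits virus-triggered autophagy in human cells, stood at 2.85 and 2.90 CPM in BATF, against 1.68 and 1.70 CPM in MIG (0.77 ± 0.25 SE). Slfn9 of the Schlafen family stood at 29.6 and 32.9 CPM in BATF, against 22.0 and 26.8 CPM in MIG (0.36 ± 0.14 SE). For both genes the BATF libraries lay above both MIG libraries, as they did in 19.2% of all genes. Of the 45 tested further interferon-stimulated genes, from which both come, 6 had this order. By edgeR neither passed the adjusted threshold (lowest adjusted p = 0.286). Ifitm3, a membrane protein that stops virus entry, lay on the lower side at 35.7 and 57.1 CPM in BATF, against 70.3 and 87.8 CPM in MIG (−0.77 ± 0.22 SE, edgeR adjusted p = 0.222). Its relatives Ifitm1 (−0.67 ± 0.31 SE) and Ifitm2 (−0.41 ± 0.41 SE) were also negative. The groups of both overlapped, and their replicates lay far apart.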
